A study of Mus musculus with 8 samples.

Results

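Adipose precursors (APs) from subcutaneous white fat (scAPs) of mice fed a high-fat diet (HFD) for 3 days were compared with scAPs of mice kept on a standard diet (SD). The comparison was formed from the sample labels alone and holds 4 of the 8 arrays of the series, SD scAP replicates 1 and 2 and HFD scAP replicates 7 and 8. It covers the 21789 of 35556 probe sets that carry exactly 1 gene symbol, which stand for 19938 genes. All mice were male C57BL/6J of 7 to 8 weeks, and diet was the only stated factor that set the groups apart within the inguinal depot. Each array held a pool from 3 mice. The cells had been depleted of CD45+ and CD31+ cells with beads, which target blood and endothelial cells, then kept for SCA-1, and they were lysed without culture. The other 4 arrays held the same diets in visceral APs (viAPs), and here they add to the estimate of the spread and to 1 test of the depot difference. Nothing in the labels says how the pools differed beyond diet, so p-values measure the spread between pools, and 2 pools a group limit the precision of every value.

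APs are fibroblast-like stromal cells that divide and differentiate into adipocytes. They also build the matrix and basement membrane of fat tissue, and they signal to vessels and immune cells. Inguinal fat contains less committed interstitial progenitors marked by DPP4 and more committed preadipocytes marked by ICAM1. The labelled cell type was checked against 13 AP markers, whose mean log2 level lay between 10.33 and 10.88 on the 4 arrays, where array medians lay between 5.95 and 6.07. Pdgfra, the receptor that defines APs, had 11.45 and 11.33 on the SD arrays and 11.56 and 11.46 on the HFD arrays. Ptprc, which encodes the depleted CD45, had 4.86 on both SD arrays and 5.67 and 5.36 on the HFD arrays. The level of the brighter genes was not the same on all arrays. Genes with a mean level above 7 averaged 8.27 and 8.07 on SD arrays 1 and 2 and 8.35 and 8.40 on HFD arrays 7 and 8. Among the viAP arrays, SD viAP replicate 4 had a higher correlation with SD scAP replicate 2 (Pearson r 0.988 over the probe sets with 1 symbol) than with SD viAP replicate 3 (0.98). The viAP changes and the depot difference rest on these arrays. Values without single viAP arrays are therefore also given for the endothelial medians, the leading genes and the number of depot differences called. The mitosis values and the counts of depot differences by unadjusted p use all arrays.

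Many more genes were higher than lower after HFD. Values are log2 intensities, so that a change of 1 is 2-fold, and a gene "rose" or "fell" if its adjusted p from limma (Benjamini-Hochberg) was under 0.05. A probe set was "called" if it also changed at least 2-fold. Tests covered the 3076 probe sets above a log2 level of 7 on at least 3 arrays and among the more variable. Of these 894 rose (29.1%) and 40 fell (1.3%), while 99 were called higher (3.22%) and 5 lower (0.163%). The median change was 0.40 over these probe sets and -0.0045 over all with 1 symbol, and a positive change alone says little. After a second quantile normalization, which removes the overall shift between arrays, 245 rose and 58 fell, and 43 were called higher and 7 lower. The counts depend on single arrays. Without HFD replicate 8 limma called 0 probe sets (996 had an unadjusted p under 0.05), without HFD replicate 7 it called 2, and without SD replicate 2 it called 32 higher and 2 lower. A model of only the 4 scAP arrays called 0 (1179 had an unadjusted p under 0.05), and with no filter 1 was called. The direction of all 104 calls held after the quantile normalization. The other settings could not turn it. They left the change as it was or left out 1 array, and no called probe set overlapped between the diets.

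**Figure D1:**
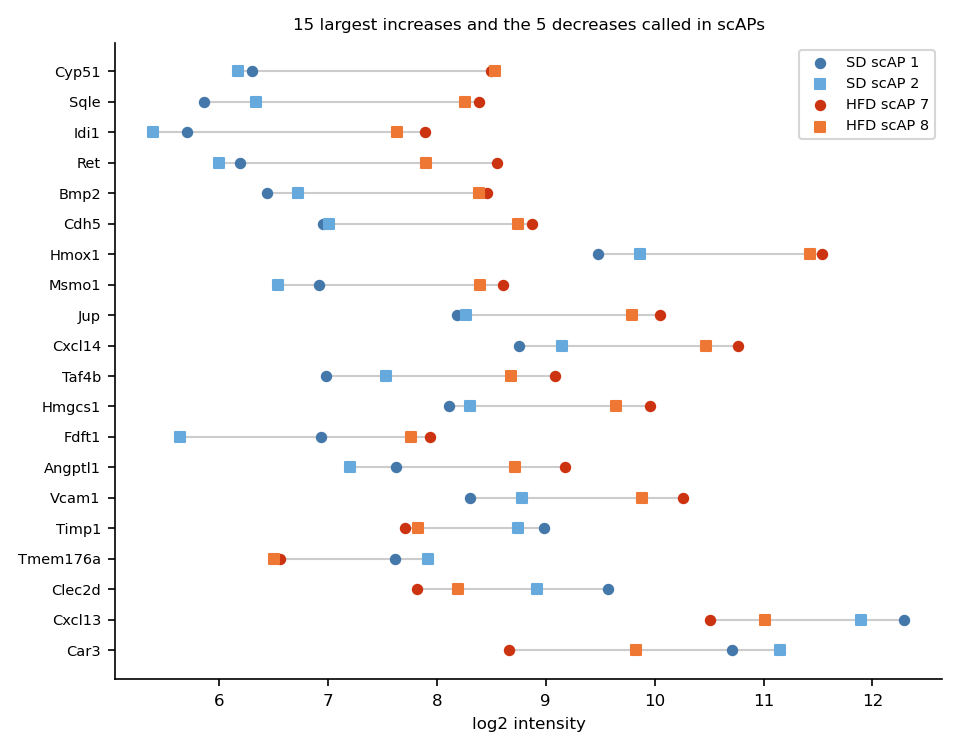
Log2 intensity (horizontal axis) of the 15 genes that increased most among those called and the 5 called lower (vertical axis), 1 point per array (SD scAP replicates 1 and 2, HFD scAP replicates 7 and 8), joined by a grey line. For Cyp51 the SD arrays stand at 6.17 and 6.30 and the HFD arrays at 8.50 and 8.54, and for Car3 the HFD arrays stand apart from each other at 8.66 and 9.83, both under the SD arrays.

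The 3 genes with the largest called increases belonged to cholesterol synthesis. The sterol pathway turns acetyl-CoA into cholesterol, and its genes are switched on together by the transcription factor SREBP2, with the factor NF-Y bound beside it at CCAAT boxes, when the endoplasmic reticulum runs short of sterol. Of 25 measured genes of sterol synthesis, its control and sterol uptake, 11 rose and 0 fell, against 4.21% rising among all 19938 genes and 13.2% among the 6185 above a level of 7. On both HFD arrays 21 of the 25 lay above both SD arrays, where 21.8% of all genes did and 46.3% of those above 7, and the median change of the list was 0.63. The 250 bases before the start site are shown for 4 of the 6 members that rose most, because the regulators shared by the pathway bind near the start of its genes. They are from RefSeq on GRCm38.p6, 5′ to 3′ on the gene's own strand, and capitals mark CCAAT or its reverse complement ATTGG and, in Hmgcs1, the sterol regulatory element TCACNCCAC. The Cyp51 sequence is chr5:4104698-4104947 (minus strand), Idi1 chr13:8885356-8885605 (plus), Msmo1 chr8:64733579-64733828 (minus) and Hmgcs1 chr13:119690101-119690350 (plus).
Cyp51: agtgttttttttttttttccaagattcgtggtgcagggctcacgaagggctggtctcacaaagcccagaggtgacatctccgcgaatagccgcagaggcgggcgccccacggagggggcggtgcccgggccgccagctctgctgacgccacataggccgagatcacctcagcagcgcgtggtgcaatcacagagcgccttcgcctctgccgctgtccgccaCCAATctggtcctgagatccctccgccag
Idi1: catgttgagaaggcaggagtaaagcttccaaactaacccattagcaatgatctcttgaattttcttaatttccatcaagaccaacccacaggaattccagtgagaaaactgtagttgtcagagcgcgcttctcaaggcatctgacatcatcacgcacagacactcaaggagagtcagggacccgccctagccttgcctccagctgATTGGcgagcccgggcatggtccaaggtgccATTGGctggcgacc
Msmo1: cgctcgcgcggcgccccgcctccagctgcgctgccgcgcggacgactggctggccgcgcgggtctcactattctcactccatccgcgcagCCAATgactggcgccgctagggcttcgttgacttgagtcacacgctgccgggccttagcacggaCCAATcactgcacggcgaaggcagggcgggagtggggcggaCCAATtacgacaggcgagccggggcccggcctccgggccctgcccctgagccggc
Hmgcs1: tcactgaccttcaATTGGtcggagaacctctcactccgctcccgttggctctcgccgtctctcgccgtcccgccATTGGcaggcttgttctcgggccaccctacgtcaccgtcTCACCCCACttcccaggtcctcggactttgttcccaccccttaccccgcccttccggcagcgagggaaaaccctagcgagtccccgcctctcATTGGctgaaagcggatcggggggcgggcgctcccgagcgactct
CCAAT on either strand was present in the promoter windows of 18 of the 20 members that had a window (250 bases before to 50 after the start), and in all 8 that rose. The same letters were present for 41.1% of 27025 genes. TCACNCCAC was found in 1 of the 20, Hmgcs1, and for 1.44% of all genes. A match is a description of these letters and not of binding.

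Cyp51 encodes the lanosterol demethylase. It had a log2 level of 6.30 and 6.17 in the SD pools and 8.50 and 8.54 in the HFD pools, and the groups lay far apart. Its change of 2.28 (4.86-fold, standard error 0.13) had the smallest adjusted p of the comparison (limma, 0.00214). It was also the 1 gene that passed when no filter was set, at an adjusted p of 0.0151 over all probe sets with 1 symbol. Sqle, the squalene epoxidase that commits squalene to sterols, went from 5.86 and 6.34 to 8.38 and 8.26 (change 2.22, standard error 0.26). Idi1 isomerizes the isoprenoid unit, and its levels of 5.70 and 5.39 stood against 7.89 and 7.63 (change 2.21). A second probe set of Idi1 changed by 1.91. Neither of these genes overlapped between the diets.

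The other enzymes that rose cover the pathway from its entry to its last steps. Hmgcs1 makes HMG-CoA at the entry and went from 8.11 and 8.30 to 9.96 and 9.65 (change 1.60, standard error 0.18, adjusted p 0.0141). Msmo1, a sterol methyl oxidase, went from 6.92 and 6.54 to 8.61 and 8.39 (1.77). Fdft1, the squalene synthase, had 6.93 and 5.64 in the SD pools against 7.94 and 7.76 (1.56, adjusted p 0.0424), and without SD replicate 2 its change was 0.92 with an adjusted p of 0.166. Later enzymes rose too, Sc5d by 1.16 and Hsd17b7 by 0.93. Dhcr7, of the last step, changed by 0.87 and did not pass (adjusted p 0.0626).

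Regulators of the pathway rose too. Insig1, a sterol-dependent brake that holds the SREBP precursor in the endoplasmic reticulum, went from 9.09 and 8.94 to 10.44 and 10.12 (1.26, adjusted p 0.0141). Srebf2, which encodes SREBP2, went from 7.79 and 8.01 to 9.29 and 9.00 (1.25, adjusted p 0.0141). Both were called and neither overlapped. Scap, the escort of SREBP, had 8.23 and 8.24 against 8.36 and 8.38 and lay outside the filter (0.14). Of the early mevalonate enzymes, Mvk, Mvd and Pmvk changed by 0.12, 0.03 and 0.02. The members thus differed widely, and after the quantile normalization 9 of the 25 rose.

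Cholesterol leaves or enters cells through other genes. Of 7 measured genes of sterol efflux, 1 rose, Scarb1, a receptor for high-density lipoprotein, from 7.38 and 7.12 to 8.08 and 7.88 (0.73, adjusted p 0.0214). The transporters Abca1 and Abcg1, which the sterol sensor LXR induces, had changes of -0.23 and -0.07, and their groups of arrays overlapped.

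**Figure D2:**
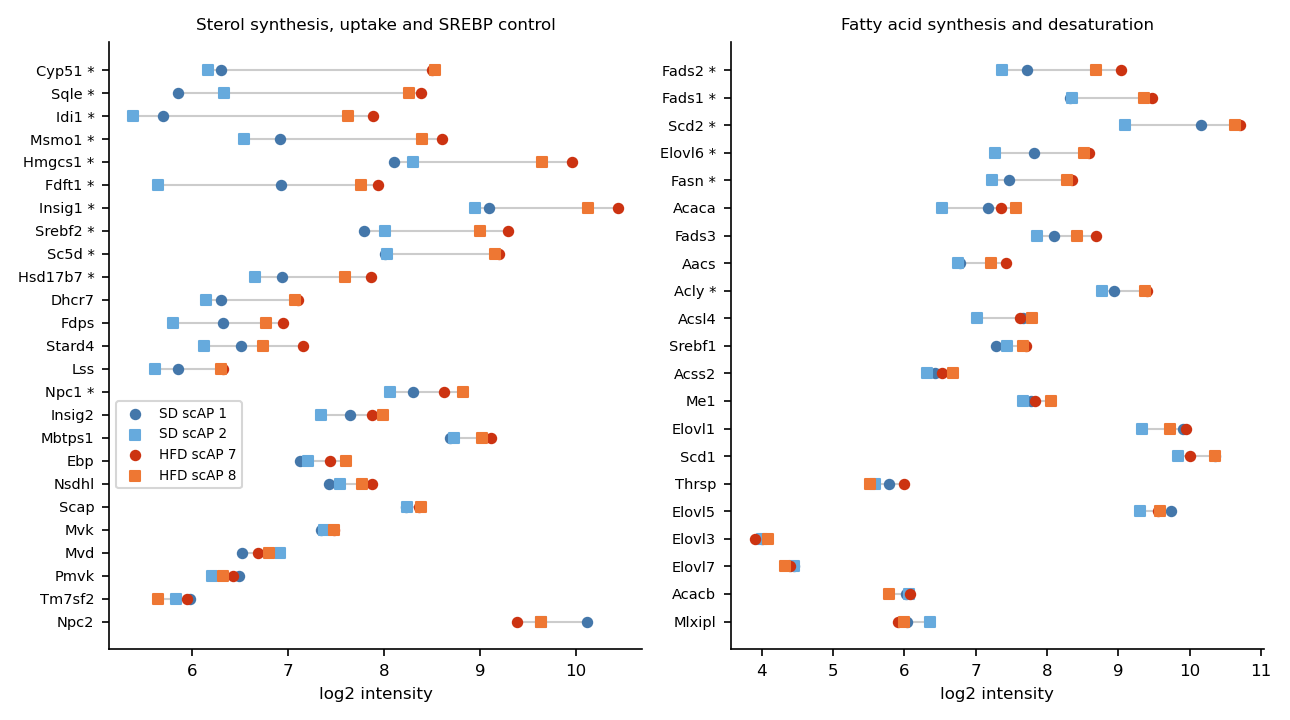
Log2 intensity (horizontal axis) of the 25 sterol genes (left) and the 21 genes of fatty acid synthesis (right), 1 point per array (SD scAP replicates 1 and 2, HFD scAP replicates 7 and 8), ordered by change. An asterisk marks genes that rose, and the gap between the diets closes down the left panel from Cyp51 (2.28), with Scap at 0.14, and turns at the bottom, where the lowest change is -0.365.

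Genes of fatty acid synthesis rose as well, with smaller sizes. SREBP1 governs this pathway, in which acetyl-CoA is carboxylated, joined into palmitate, elongated and desaturated. Of 21 measured members, 15 of them above a level of 7, 6 rose and 0 fell, 12 lay above on both HFD arrays, and the median change was 0.32 (13.2% of genes above 7 rose and 46.3% lay above). Fads1 and Fads2 desaturate polyunsaturated fatty acids. Fads1 had 8.32 and 8.35 in the SD pools and 9.48 and 9.37 in the HFD pools (1.09, adjusted p 0.0141). Fads2 had 7.72 and 7.38 against 9.03 and 8.68 (1.31, adjusted p 0.0289). Fasn, the synthase itself, had 7.48 and 7.23 against 8.35 and 8.29 (0.97, adjusted p 0.0141). The groups did not overlap for any of these. The elongase Elovl6 rose by 1.01 and Acly, which makes cytosolic acetyl-CoA, by 0.54. Scd2, a desaturase, had 10.16 and 9.10 against 10.70 and 10.64 (1.04, adjusted p 0.0481), and its change was 0.51 without SD replicate 2 and 1.57 without SD replicate 1. Its relative Scd1 had 10.36 and 9.83 against 10.01 and 10.35, with overlap (0.09). After the quantile normalization 2 of the 21 rose. Genes that burn fatty acids did not pass in either direction: of 22 measured genes of fatty acid oxidation and PPAR targets 0 rose and 0 fell (limma, with 1 higher and 1 lower at an unadjusted p under 0.05), with a median of 0.09 and 7 above and 5 below on both HFD arrays. Fabp4, at 0.75 (limma, adjusted p 0.116), and Plin2 had the changes largest in size, and neither passed. Among negative changes, Cpt1a, the gate of mitochondrial fatty acid import, stood at -0.50 (adjusted p 0.0657).

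Hmox1, the heme oxygenase that breaks heme down to biliverdin, iron and carbon monoxide, had 9.48 and 9.86 in the SD pools and 11.54 and 11.42 in the HFD pools. The groups did not overlap, and the change was 1.81 (3.51-fold, standard error 0.21, adjusted p 0.0141). The transcription factor NRF2 induces Hmox1 together with genes of glutathione and thioredoxin, while BACH1 represses it. Of 32 measured genes of heme breakdown and NRF2 targets, 23 of them above a level of 7, 5 rose and 1 fell, with a median of 0.12. On both HFD arrays 14 lay above and 4 below. Among all genes above 7, 13.2% rose, 46.3% lay above and 8.99% below, and among all genes 21.8% lay above and 18.8% below. Gclm, a subunit of the enzyme that limits glutathione synthesis, went from 6.78 and 6.55 to 7.67 and 7.55 (0.94, adjusted p 0.0142), and its partner Gclc rose by 0.70. Txnrd1, the thioredoxin reductase, rose by 0.85 and Bach1 by 0.64. Sod1, a superoxide dismutase, fell from 10.82 and 10.99 to 10.46 and 10.22 (-0.57, adjusted p 0.026). Other classic NRF2 targets gave small values, with 0.04 for Nqo1 and -0.10 for Slc7a11. The antioxidant response element TGACNNNGC, on either strand, was in the promoter windows of 10 of 26 members with a window and of 14% of all genes. Hmox1 itself had no window and was not searched. Probe sets that the annotation lists under several adult globin genes were also higher in the HFD pools, by 1.90 to 2.21, whereas of 10 erythroid markers with a single symbol 0 lay above on both HFD arrays and 2 below. None of the 10 was in the filter, so that none could pass the test. Their part in the Hmox1 change was not tested.

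Ret, a receptor tyrosine kinase for ligands of the GDNF family, had the largest called increase outside lipid synthesis. Its levels were 6.19 and 6.00 in the SD pools and 8.55 and 7.90 in the HFD pools, without overlap (2.13, standard error 0.24, adjusted p 0.0141). Its ligands Gdnf, Nrtn, Artn and Pspn and the 3 measured Gfra co-receptors had changes from -0.56 for Gfra2 to 0.03 for Gfra1, and 1 of these was in the filter and did not pass. Genes of negative feedback on the ERK kinases, which act below such receptors, all had positive changes, with a median of 0.46. Of 11 measured, 7 of them above a level of 7, 2 rose, 8 lay above on both HFD arrays and 0 below. Among all genes above 7, 13.2% rose, 46.3% lay above and 8.99% below. Spry1 went from 6.89 and 7.58 to 8.59 and 8.23 (1.17, adjusted p 0.0235). Spry4 rose by 0.95 (adjusted p 0.0323). The ETS factors Etv4 and Etv5 changed by 0.08 and 0.12 and overlapped.

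Bmp2, a ligand of the TGF-beta superfamily that can commit mesenchymal cells to bone or fat, had 6.44 and 6.73 in the SD pools and 8.46 and 8.38 in the HFD pools. Its change of 1.84 (3.57-fold, standard error 0.16, adjusted p 0.0108) was well beyond the spread between pools. Of 24 measured genes of the BMP pathway, 15 of them in the filter, 3 rose and 0 fell, with a median of 0.24 (29.1% of all filtered probe sets rose). The other 2 were Eng, a co-receptor that endothelial cells also carry (1.10, adjusted p 0.0141), and Bmp1, a protease of procollagen that is no BMP ligand (0.49). Targets of BMP signalling gave no common direction, with Id1 at 0.37, Id2 at 0.26, Id3 at -0.30 and Smad6 at 0.03, and none of these was in the filter. Of 22 targets of TGF-beta and YAP, 16 of them above a level of 7, 5 rose and 0 fell, and 17 lay above on both HFD arrays, where 13.2% of all genes above 7 rose and 46.3% lay above. Smad7, an inhibitor of TGF-beta receptors that the pathway itself induces, went from 6.71 and 6.88 to 8.04 and 7.96 (1.20, adjusted p 0.0108). Ski and Skil, corepressors of the SMADs, rose by 0.72 and 0.68, Ccn1 by 0.55 and Amotl2 by 0.53. Thbs1, a matrix protein that inhibits angiogenesis, had 9.13 and 9.65 against 10.77 and 10.39 (1.19) and did not pass (standard error 0.61, adjusted p 0.172). That error is shared with the viAP arrays, where the SD pools had 11.54 and 9.45, and without SD viAP replicate 3 or 4 Thbs1 passed (standard error 0.24, adjusted p 0.0245 and 0.0253). From the 4 scAP arrays alone the standard error was 0.26 and the adjusted p 0.0629.

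Several other genes with the largest increases belong to no common pathway. Jup, or plakoglobin, a protein of cell junctions, went from 8.18 and 8.27 to 10.05 and 9.79 (1.69, adjusted p 0.0108). Taf4b, a subunit of the general transcription factor TFIID, had 6.98 and 7.53 against 9.09 and 8.68 (1.63). Angptl1, a secreted angiopoietin-like protein, had 7.62 and 7.20 against 9.18 and 8.72 (1.54, adjusted p 0.0279). None of the 3 overlapped between diets. Pparg, the master regulator of adipogenesis, went from 7.18 and 7.61 to 8.35 and 8.41 (0.99, adjusted p 0.0323). Of the 23 measured transcription factors of adipogenesis, 9 of them in the filter, it was 1 of 2 that rose, with Sirt1 (0.86). Among all filtered probe sets 29.1% rose, and after the quantile normalization 0 of the 23 rose. Cebpa, the partner of Pparg, had 6.82 and 7.00 against 7.41 and 7.38 (0.48) and lay outside the filter.

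Endothelial transcripts were higher in the HFD pools although CD31+ cells had been depleted in both groups. In RNA of bulk cells, more cells of a type and more RNA per cell cannot be told apart. Of 38 measured endothelial markers 27 lay above on both HFD arrays and 1 below, where 21.8% and 18.8% of all genes did, with a median change of 0.55. The filter held 6 of the 38, of which 4 rose and 0 fell, where 29.1% of all filtered probe sets and 4.21% of all genes rose. The mean log2 level of the list was 6.27 and 6.33 on the SD arrays and 7.02 and 6.89 on the HFD arrays. Cdh5, the cadherin of endothelial junctions, had 6.95 and 7.01 against 8.88 and 8.74 (1.83, standard error 0.38, adjusted p 0.0225). Aqp1, a water channel, rose by 1.19 and Ece1 by 0.73. Tek, among the brightest of the list, changed by 0.45 and did not pass, and the lowest change of the list was -0.40. Most defining markers were too dim for the filter, which asked for a level above 7 on 3 arrays and so could not pass a gene bright on the 2 HFD arrays alone. The following markers were outside it and are given with p-values from limma adjusted over all probe sets with 1 symbol, none of which passed. Pecam1, which encodes the CD31 that the beads had targeted, had 6.25 and 6.38 against 7.78 and 7.70 (1.43, adjusted p 0.0825). Kdr, a VEGF receptor, had 6.25 and 5.98 against 7.61 and 7.67 (1.52, adjusted p 0.0825), and Flt1, another one, had 5.81 and 6.15 against 7.09 and 6.87 (1.00, adjusted p 0.0856). Emcn, a sialomucin of endothelium, had 5.00 and 4.52 against 6.44 and 6.67 (1.80, adjusted p 0.0851). These groups did not overlap, and 24 of the 38 markers stayed under a level of 7 on both HFD arrays.

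**Figure D3:**
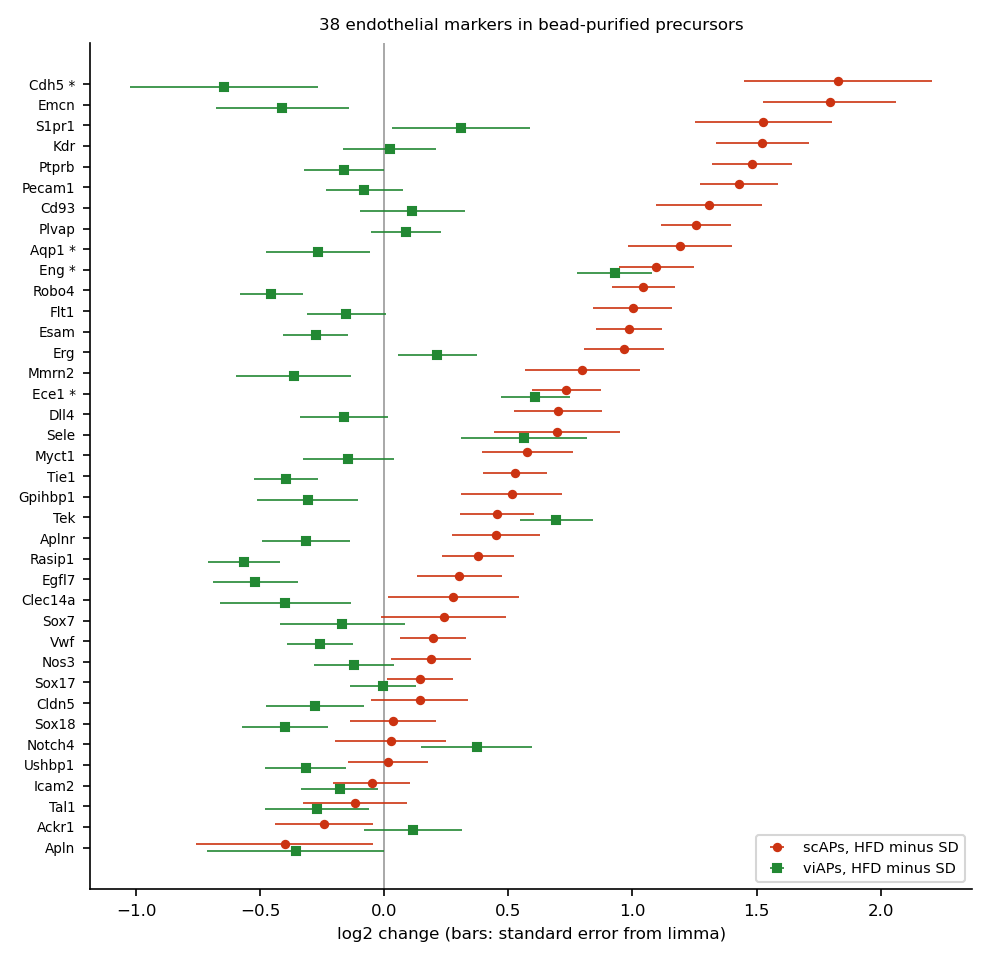
Log2 change, HFD minus SD (horizontal axis), of the 38 endothelial markers (vertical axis) in scAPs (red) and viAPs (green), with bars for the standard error from limma. An asterisk marks genes that rose in scAPs, and Cdh5 stands at 1.83 in scAPs and -0.65 in viAPs, the latter 0.0092 without HFD viAP replicate 6.

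In viAPs the endothelial markers did not share this direction. The same 38 had a median change of -0.17 there, and 18 of the 27 that lay above on both HFD scAP arrays had a negative change in viAPs. Leaving out each viAP array in turn, an alternative added after the data were seen, gave medians from -0.24 to -0.14 and 14 to 19 of the 27. For Cdh5 the viAP levels were 6.85 and 6.67 on SD against 6.77 and 5.46 on HFD, so that its change of -0.65 rested on HFD viAP replicate 6 (0.0092 without it, and -1.30 without replicate 5). The difference between the depots' changes had an unadjusted p under 0.05 for 22 of the 38, each larger in scAPs, against 6% of all genes in either direction and 2.56% larger in scAPs. With 6 of the 38 in the filter it was called for none, and without HFD viAP replicate 5 it was called for Cdh5. Of the mural markers, Rgs5 went from 5.67 and 5.46 to 6.71 and 6.87 (1.23) and Notch3 from 6.13 and 6.32 to 7.17 and 7.09 (0.90), but over 15 markers of pericytes and smooth muscle the median was 0.09, and of the 3 in the filter 0 rose by limma (of the 15, 2 were higher at an unadjusted p under 0.05). For comparison with the counts that follow, 21.8% of all genes lay above on both HFD arrays and 18.8% below. Of 5 lymphatic markers 1 lay above and 1 below. Macrophage and lymphocyte markers were all outside the filter, so that none could pass the test. Of 19 macrophage markers 6 lay above and 2 below on both HFD arrays, with a median of 0.09, and 4 were higher at an unadjusted p under 0.05. Of 17 lymphocyte markers 2 lay above and 3 below. Of 14 skeletal muscle markers 0 lay above and 8 below, and of 10 epithelial markers 0 lay above and 4 below. Of 16 adipocyte markers, 3 of them in the filter, 1 rose, Aqp7, a glycerol channel also present in capillaries (0.82). Car3 fell (-1.69, limma, adjusted p 0.0245), and of the 16 markers 2 lay above and 8 below on both HFD arrays. Adipoq, the defining adipocyte hormone, had 5.98 and 5.86 against 5.00 and 5.13. The part of these cells in the other changes was not tested.

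**Figure D4:**
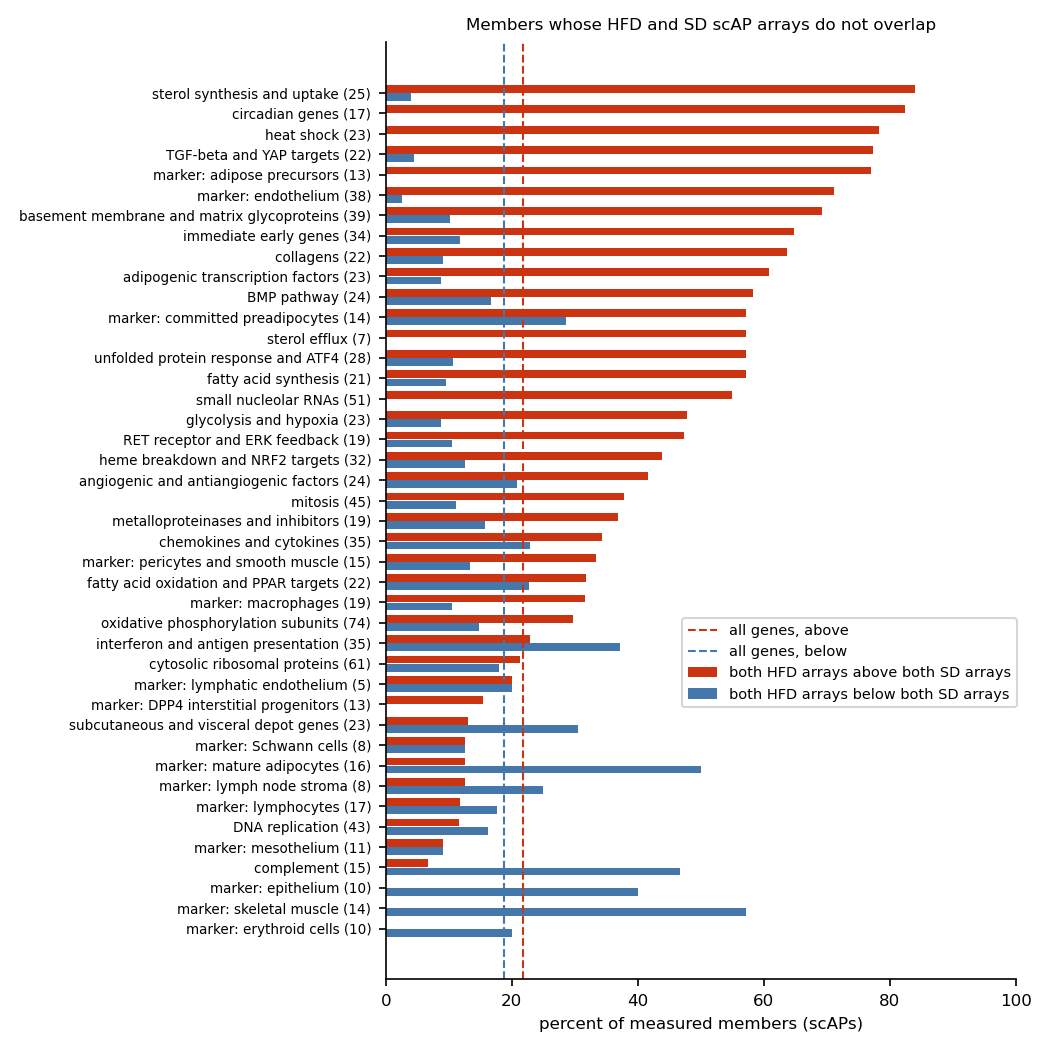
Percent of the measured members of each gene list (horizontal axis; number of members in brackets on the vertical axis) whose 2 HFD scAP arrays both lay above (red) or both below (blue) the 2 SD scAP arrays. Dashed lines give the same shares over all genes, 21.8% above and 18.8% below, and the sterol, circadian and heat shock lists have the longest red bars.

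Genes of the matrix around the cells had changes of unequal size. The basement membrane is the sheet of type IV collagen, laminin, nidogen and perlecan that wraps adipocytes and vessels. Of 22 measured collagens, 14 of them in the filter, 4 rose and 0 fell, a share of the filtered members close to the 29.1% of all filtered probe sets. Col15a1, a collagen at the edge of basement membranes, went from 9.28 and 10.02 to 11.34 and 10.90 (1.47, adjusted p 0.0176). Col4a1 and Col4a2, the chains of the type IV network, rose by 1.06 and 1.25, the latter from 8.99 and 9.57 to 10.66 and 10.40. Col6a1 rose by 0.64. The fibrillar collagens had high levels and small changes, at 0.15 for Col1a1, 0.09 for Col1a2 and 0.17 for Col3a1.

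Of 39 other genes of the basement membrane and matrix, 35 of them above a level of 7, 16 rose, 0 fell and 27 lay above on both HFD arrays, with a median of 0.45, where 13.2% of all genes above 7 rose and 46.3% lay above. Lamb1, a laminin chain, went from 9.54 and 9.93 to 11.17 and 10.86 (1.28, adjusted p 0.0182). Hspg2, or perlecan, went from 9.84 and 10.13 to 11.25 and 10.95 (1.11, adjusted p 0.0142). These 2 belong to the 11 laminins, nidogens and perlecan, of which 6 rose. Among proteins of elastic fibres and of the space between fibres, Mfap4 rose by 1.30, Spon2 by 1.11 and the proteoglycan Fmod by 1.01. After the quantile normalization 9 of the 39 rose. Enzymes that cut the matrix moved as well. Of 19 metalloproteinases and inhibitors, 16 of them above a level of 7, 5 rose and 1 fell (13.2% of all genes above 7 rose). Adamts12, Adamts1 and Adamts5, secreted proteases of proteoglycans, rose by 1.12, 1.02 and 0.80, and the inhibitor Timp3 by 0.77. Timp1, a second inhibitor, went the other way, from 8.98 and 8.74 to 7.71 and 7.83 (-1.10, standard error 0.16, adjusted p 0.0142).

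Chaperones of the cytosol and mitochondria were among the genes that rose. The transcription factor HSF1 induces them when proteins misfold. Of 23 measured heat shock genes, all above a level of 7, 9 rose and 0 fell, 18 lay above on both HFD arrays and 0 below, and the median change was 0.52. Among all genes above 7, 13.2% rose, 46.3% lay above and 8.99% below. Hsp90aa1, an inducible HSP90, had 11.44 and 11.33 in the SD pools and 12.36 in both HFD pools (0.98, adjusted p 0.0142). Hsph1, of the HSP110 family, had 8.43 and 8.07 against 9.29 and 9.16 (0.97). Dnajb1, a cochaperone of HSP70, rose by 0.89, the mitochondrial chaperonin Hspd1 by 0.84 and Bag3 by 0.79. The major inducible HSP70 gene in the list, Hspa1a, had 10.48 and 9.83 against 10.53 and 10.60 and did not pass (0.41, adjusted p 0.281). The heat shock element, searched on both strands, was in the windows of 4 of 20 members, among them Hsph1 and Hspd1, and of 0.662% of all genes. After the quantile normalization 2 of the 23 rose. In the unfolded protein response of the endoplasmic reticulum, 2 of 28 members rose, the chaperones Hspa5 (0.68) and Hsp90b1 (0.47), and Ddit3, its marker of lasting stress, had -0.23.

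Immediate early genes answer growth factors and stress within minutes. Of 34 measured members, all above a level of 7, 9 rose and 0 fell (13.2% of such genes rose). Klf6, a zinc finger factor, went from 10.44 and 10.30 to 11.68 and 11.61 (1.27, standard error 0.12, adjusted p 0.0108). Maff rose by 1.28, the GTPase Rhob by 1.25, and Klf2 and Gadd45a by 0.75 each. The classic members were bright in both diets and had small changes, with Fos at 12.64 and 12.48 against 12.67 and 12.58 and Egr1 at 12.37 and 12.39 against 12.66 and 12.50. All 3 Nr4a genes had negative changes, from -0.56 to -0.34, and did not pass. After the quantile normalization 3 of the 34 rose. Clock genes form a loop of activators and repressors that runs over the day. Of 17 measured, 10 of them above a level of 7, 4 rose and 0 fell, and 14 lay above on both HFD arrays, against 13.2% and 46.3% of genes above 7 and 4.21% and 21.8% of all genes. Arntl (BMAL1), the activator of the clock, rose by 0.68, and Dbp, its output, rose by 0.63. Rora and Cry2 rose by 0.72 and 0.65, and the change of Cry2 was 0.43 without SD replicate 2 (adjusted p 0.112).

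Among 35 measured chemokines, cytokines and adhesion genes, 17 of them in the filter, 5 rose and 1 fell, with a median of 0.11. The share of filtered members that rose was close to the 29.1% of all filtered probe sets. Cxcl14, a chemokine of resident stroma, went from 8.75 and 9.15 to 10.77 and 10.47 (1.67, standard error 0.41, adjusted p 0.0307). Vcam1, the adhesion receptor for leukocytes, went from 8.30 and 8.78 to 10.26 and 9.89 (1.53, adjusted p 0.0141). Il17d rose by 1.22 and Ccl11, or eotaxin, by 0.64. The main inflammatory signals had small changes or did not pass, with Ccl2 at 10.75 and 10.74 against 10.59 and 10.66, Il6 at -0.42 (adjusted p 0.314) and Tnf and Il1b dim in both diets. Of 35 genes of the interferon response and antigen presentation 1 rose, Isg20 (0.54), and 1 fell, Nlrc5, the activator of MHC class I genes (-0.54, adjusted p 0.0495, and -0.35 without SD replicate 2). In this list 13 lay below on both HFD arrays, against 18.8% of all genes and 8.99% of those above 7. Irf7 was among them, from 9.53 and 9.01 to 8.07 and 8.64 (-0.91, adjusted p 0.137). Trim12a and Trim12c, near-identical neighbours whose probes may cross-react, had opposite changes of 2.13 and -1.03 and are uncertain. Of 15 complement genes 0 rose and 0 fell (1 was lower at an unadjusted p under 0.05), 7 lay below on both, and C2 had the most negative change (-1.04, adjusted p 0.123), which passed without SD viAP replicate 3 or 4.

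The 5 called decreases were spread over different functions. Car3, a carbonic anhydrase abundant in adipocytes, had 10.71 and 11.15 in the SD pools and 8.66 and 9.83 in the HFD pools (-1.69, standard error 0.38, adjusted p 0.0245). The HFD pools differed from each other by more than the SD pools, and without HFD replicate 7 its change was -1.11 (adjusted p 0.0985). Cxcl13, which attracts B cells, had 12.29 and 11.89 against 10.50 and 11.02 (-1.33, adjusted p 0.0323). Clec2d, a C-type lectin that binds an inhibitory receptor of natural killer cells, had 9.57 and 8.92 against 7.82 and 8.19 (-1.24, adjusted p 0.0182). Tmem176a, a membrane protein, had 7.61 and 7.92 against 6.55 and 6.51 (-1.24, adjusted p 0.0141). With Timp1, given above, these groups did not overlap for any of the 5. After centring or quantile normalization 6 and 7 probe sets were called lower.

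Markers of the less committed precursors differed between pools of the same diet. Of 13 markers of DPP4+ interstitial progenitors 1 rose, Mfap5, and 2 lay above on both HFD arrays, while for 13 of 13 SD replicate 1 exceeded SD replicate 2 and for 12 of 13 HFD replicate 8 exceeded HFD replicate 7. Among all genes above 7 these shares were 74.8% and 57%. The mean level of the 13 was 9.78 and 9.27 in the SD pools and 9.38 and 9.91 in the HFD pools, so the groups overlapped. Of 14 markers of committed preadipocytes, 13 of them in the filter, 3 rose, where 29.1% of all filtered probe sets did. These were Col15a1, Col4a1 and Pparg, which were also counted in the lists above. On both HFD arrays 8 of the 14 lay above and 4 below, where 46.3% and 8.99% of genes above 7 did, and the lowest change was -0.69. In this list 3 of 14 were higher in SD replicate 1 than in replicate 2 and 5 of 14 in HFD replicate 8 than in replicate 7. Among general AP markers, Thy1 went from 9.93 and 9.62 to 10.92 and 10.89 (1.13, adjusted p 0.0323), and Pdgfrb rose by 0.88, Cd44 by 0.80 and Itgb1 by 0.50. Of 23 genes that mark the subcutaneous or visceral depot 0 rose and 1 fell, Osr1 (-0.49, adjusted p 0.0416).

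**Figure D5:**
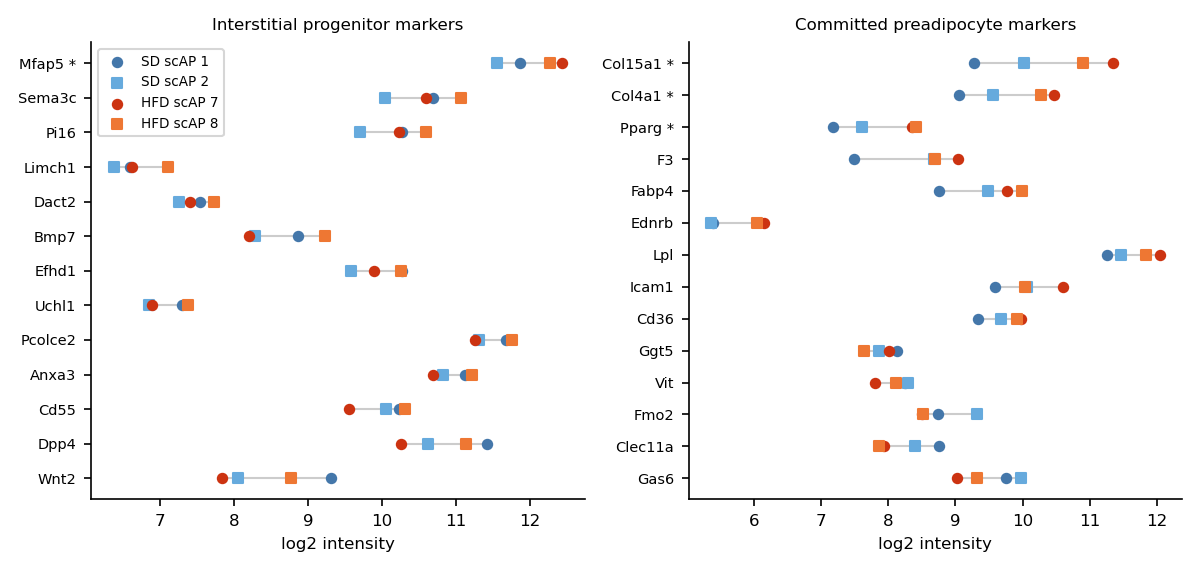
Log2 intensity (horizontal axis) of 13 markers of DPP4+ interstitial progenitors (left) and 14 of committed preadipocytes (right), 1 point per array (SD scAP replicates 1 and 2, HFD scAP replicates 7 and 8). An asterisk marks genes that rose, and on the left SD replicate 1 lies above SD replicate 2 for 13 of 13 and HFD replicate 8 above HFD replicate 7 for 12 of 13.

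No mitosis gene passed the test with the main filter. Mki67, which encodes the proliferation marker Ki67, had 6.04 and 5.70 in the SD pools and 6.74 and 6.61 in the HFD pools (0.81, adjusted p 0.142 over all probe sets with 1 symbol). Of 45 mitosis genes 0 rose by limma, 8 had an unadjusted p under 0.05, all higher, and 17 lay above on both HFD arrays (21.8% of all genes did). Their median change was 0.26, and between 0.00055 and 0.57 across the alternatives. These genes were dim, and 2 of the 45 were in the filter. In viAPs the median change of the same 45 was 1.30, and 43 lay above on both HFD viAP arrays. The difference between the depots' changes had an unadjusted p under 0.05 (limma) for 35 of the 45, against 6% of all genes. With 2 of the 45 in the filter it was called for none. Of 43 replication genes 1 rose, Pcna, from 8.78 and 8.83 to 9.53 and 9.55 (0.74, adjusted p 0.0228), and the median was -0.01, with 3 of the 43 in the filter.

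Of 23 genes of glycolysis and the hypoxia response, 14 of them above a level of 7, 3 rose (13.2% of all genes above 7 did). Hk2, the hexokinase of the first step, went from 8.75 and 9.00 to 10.01 and 9.84 (1.05, adjusted p 0.0141). Pgk1 rose by 0.60 and Hif1a by 0.49, the latter close to the threshold and at 0.32 without SD replicate 2. Small nucleolar RNAs, which guide the modification of ribosomal RNA, had a median change of 0.41 over 51 measured, 24 of them above a level of 7. Of the 51, 10 rose, 0 fell and 28 lay above on both HFD arrays, against 4.21% and 21.8% of all genes and 13.2% and 46.3% of those above 7. Snord33 went from 8.65 and 8.13 to 9.83 and 10.34 (1.70, adjusted p 0.0142). Snord61 had 8.03 and 6.85 against 9.00 and 9.62 (1.87), and Snord104 had a change of 0.86 without HFD replicate 8 (1.32 with it). Their host genes code in part for ribosomal proteins, yet of 61 ribosomal protein genes, 5 of them in the filter, 2 rose, Rps3 (1.07) and Rps19 (0.76), and the median was 0.04. Of 74 subunits of oxidative phosphorylation, 11 of them in the filter, 1 rose, Cox4i1 (0.66), with a median of 0.05.

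No difference between the depots' diet responses was called among the probe sets in the filter. Most mitosis genes and endothelial markers lay outside the filter and could not be called. Limma's test of the scAP change minus the viAP change called 0 of 3076 probe sets, the smallest adjusted p was 0.267, and 397 (12.9%) had an unadjusted p under 0.05. Without SD viAP replicate 3 it called 71, without SD viAP replicate 4 it called 0 and without HFD viAP replicate 5 it called 1, Cdh5. Both depots' values are therefore given side by side for the leading genes. The change was 2.28 in scAPs and 1.93 in viAPs for Cyp51, 1.81 and 2.19 for Hmox1, and 2.13 and 2.28 for Ret. It was 1.84 and 0.85 for Bmp2 (difference adjusted p 0.298) and 1.67 and -0.27 for Cxcl14 (0.315). For Timp1 the values were -1.10 and -0.19 (0.298), and for Pparg 0.99 and -0.41 (0.298). The small viAP values depended on single arrays. Cxcl14 had 7.98 and 9.34 in the SD viAP pools against 8.48 and 8.29 in the HFD viAP pools, and its viAP change was 0.41 without SD replicate 4 and -0.95 without SD replicate 3. Pparg had 7.17 and 7.89 against 7.16 and 7.08, and its viAP change was -0.05 without SD replicate 4 and -0.77 without SD replicate 3. When each viAP array was left out, the viAP change of Timp1 lay between -0.35 and -0.02 and that of Bmp2 between 0.72 and 0.98. That of Ret lay between 2.10 and 2.46, that of Cyp51 between 1.82 and 2.05 and that of Hmox1 between 1.962 and 2.425.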

How the data were processed

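RNA of bead-purified APs was measured on 8 1-colour Affymetrix Mouse Gene 1.0 ST arrays. The authors deposited linear intensities, rounded to whole numbers, 1 for each probe set on each array, after RMA, which corrects background, equalizes arrays and summarizes probes. RMA is named in the submitters' notes with Affymetrix Expression Console 1.1, and in the paper's methods with an R package. How the antilog and rounding were done is not given in the sources used here. Rounding makes levels under about 4 coarse. The log2 was taken without further scaling. Groups came from the labels. The annotation gave 21789 probe sets 1 symbol, 1621 several and 12146 none, and 21698 of the first kind matched the reference by Entrez ID, with 0 symbols changed. A model with 1 mean per diet and depot was fitted to 8 arrays (R 4.3.3, limma 3.58.1, with eBayes run over all probe sets, 4 residual and 2.64 prior degrees of freedom). P-values were adjusted by Benjamini-Hochberg over the 3076 probe sets with 1 symbol that exceeded 7 (log2) on 3 or more arrays and whose mean absolute deviation was in the highest tercile, the filter of the paper's methods. Genes outside this filter were adjusted over the 21789. A gene with several probe sets is given by the one with the highest mean. Fold changes are 2 to the power of the log2 change.

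The members, gene lists and tests were chosen with earlier results of these data known, so lists are described by counts and medians and not tested. Some list members were not analysed here. Genes were named by a rule: those the study names for scAPs, and among called genes the 15 largest increases and all decreases (small RNAs left out). Of each list up to 5 members that passed were added or, where none did, those with the largest changes, and of marker lists the brightest members. Sc5d, Hsd17b7, Dhcr7, Insig1, Srebf2, Scap, Mvk, Mvd, Pmvk, Abca1, Abcg1, Acly, Scd1, Cpt1a, Sod1, Nqo1, Slc7a11, Gdnf, Nrtn, Artn, Pspn, Gfra2, Gfra1, Etv4, Etv5, Id1, Id2, Id3, Smad6, Cebpa, Pecam1, Kdr, Emcn, Adipoq, Col1a2, Hspa1a, Ddit3, Fos, Egr1, Ccl2, Il6, Tnf, Il1b, Irf7, Trim12a and Trim12c were chosen after their values were seen. Promoter windows came from RefSeq. In simulated data of this design 99.5% of 200 genes raised 3-fold were called among 2068 tested, with 0 false calls. The raised genes were bright, noise was independent between probe sets, and no shift between arrays was simulated. The simulation checks the code and does not give the power or the false calls of the real data. Figures were drawn with matplotlib 3.10.9. Alternatives were a model of 4 arrays, log2 of the value plus 16, a second quantile normalization, median centring, no filter, the level filter alone, an intensity trend, no moderation, leaving out each array and, added after the data were seen, a filter asking for 2 arrays and viAP changes without each viAP array.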

Additional observations from a re-analysis of the deposited data

Results flagged for a closer look

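Signals also appeared in probe sets outside the comparison, which used those with 1 gene symbol. Probe sets that the annotation lists under several adult globin genes were higher after HFD in a limma fit adjusted over 4748 probe sets with any annotation. The alpha globin probe set with the larger change had a log2 level of 8.31 and 7.80 in the SD pools and 10.06 and 10.47 in the HFD pools (change 2.21, standard error 0.30, adjusted p 0.0127). The other alpha probe set had 8.32 and 7.81 against 9.93 and 10.43 (2.11, adjusted p 0.0127). The beta globin probe sets had 8.09 and 7.83 against 9.58 and 10.36 (2.01, adjusted p 0.0127) and 8.10 and 7.79 against 9.46 and 10.22 (1.90, adjusted p 0.0137). The groups overlapped for none of the 4, and probe sets listed under several near-identical globin genes cannot be assigned to 1 of them. Of the 1437 probe sets without a symbol in the same fit, 74 were called higher and 41 lower in scAPs.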

How the results depend on the processing

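The 104 called probe sets kept their direction after the second quantile normalization and after median centring. The rest of the 17 alternatives could not turn it, because none of the 104 overlapped between diets or because the change stayed the same. Which probe sets passed the threshold depended on the arrays and the adjustment, and the cause was not tested. Against 99 called higher and 5 lower, 894 risen and 40 fallen, a model of the 4 scAP arrays gave 0, 0, 0 and 0. The second quantile normalization gave 43, 7, 245 and 58, no filter 1, 0, 1 and 0, the level filter alone 63, 3, 242 and 11, and no moderation 50, 2, 360 and 11. Log2 of the value plus 16 gave 78 fallen and median centring 24. Leaving out 1 array gave 0 to 136 called higher, 0 to 12 called lower, 0 to 1157 risen, 0 to 71 fallen and 0 to 71 called for the depot difference. The lowest counts came without HFD scAP replicate 8 or 7, and without SD scAP replicate 2 there were 49 risen and 4 fallen. Without HFD viAP replicate 5 or 6 there were 231 and 206 risen, and without SD viAP replicate 3 or 4 there were 71 and 69 fallen. The depot difference was called for 1 gene, Col8a1, with no filter and when 2 arrays were asked for, and for 1, Cdh5, without HFD viAP replicate 5. Of 95 named genes that passed, 49 passed after the quantile normalization, 45 with the level filter alone, 41 without moderation, 1 with no filter, 0 with the 4 arrays, 2 when HFD scAP replicate 7 was left out, 0 for HFD scAP replicate 8 and 21 for SD scAP replicate 2, and none changed sign. Centring and the quantile normalization shifted the median of all probe sets to 0.05 and 0.03. No paired analysis was possible because the labels number the arrays 1 to 8 and no number is shared between diets. With 2 pools a group, and dim genes near background, a change that did not pass is not shown to be absent.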
